A study of Rattus norvegicus with 138 samples.

Results

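The inflammatory CC chemokines Ccl2, Ccl3, Ccl4, Ccl5, Ccl6, Ccl7 and Ccl12 and the receptors Ccr1 and Ccr2 were followed in rat muscle after volumetric muscle loss (VML), the surgical removal of a volume of muscle. They were taken by symbol, and all 9 were present among the 16181 symbols of the expression table. RNA-Seq was performed on the tibialis anterior (TA), a muscle of the lower leg, of male Lewis rats, an inbred strain, aged about 4 months. The injury was a full-thickness biopsy punch in the middle of the left TA, and the right TA of the same rat served as uninjured contralateral muscle. Injured muscles were left non-repaired or were filled with an autologous minced muscle graft (MMG), small pieces of the rat's own muscle. They were taken at 3, 7, 14 or 28 days post injury (DPI), from rats labelled as running or not running. What the running consisted of is not given in the sources used here. Control muscles were the left and right TA of 2 rats, labelled sham and day 0 and called unoperated by the study. Strain and sex were shared by all rats.

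Of 114 muscles in 31 groups, 4 were control. Non-repaired injured muscle of rats that did not run numbered 3, 8, 4 and 4 at 3, 7, 14 and 28 DPI, and grafted injured muscle of such rats numbered 7, 8, 4 and 4. In running rats there were 8, 4, 4 and 2 non-repaired and 6, 4, 4 and 2 grafted injured muscles. Contralateral groups held 2 muscles each, except at 7 DPI in rats that did not run, where there were 4 from non-repaired and 6 from grafted rats. No contralateral muscle of running rats entered at 28 DPI. The control rats belong to another numbered series of rats than all operated rats, so injury and rat series cannot be told apart in a comparison with control. Both control muscles of a rat share an animal, and the p values measure the spread between the muscles sampled here.

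CC chemokines are small secreted proteins with a pair of adjacent cysteines, and they bind G protein-coupled receptors on leukocytes. Ccl2, Ccl7 and Ccl12 act on Ccr2, which brings classical monocytes from the bone marrow and blood into inflamed tissue. Ccl3 and Ccl5 act on Ccr1 among other receptors, Ccl4 is a close relative of Ccl3, and Ccl6 is a rodent chemokine that acts on Ccr1. In injured skeletal muscle, infiltrating monocytes and the macrophages they become clear debris and shape the response of satellite cells and fibroblasts.

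The members sit in clusters in the rat genome. In the RefSeq annotation of the GRCr8 assembly, Ccl2, Ccl7, Ccl11 and Ccl12 are neighbours on chromosome 10. Ccl5, Ccl9, Ccl6, Ccl3 and Ccl4 lie elsewhere on that chromosome, and Ccr1, Ccr3 and Ccr2 lie together on chromosome 8. RefSeq promoter sequence was matched for 5 of the 9 members, namely Ccl7, Ccl12, Ccl6, Ccr1 and Ccr2. Shown are the 250 bases before the start of the 3 ligands among them, the only ligands with a match. Capitals mark TATAAA, the TATA box core. Positions are on GRCr8 and sequences run 5′ to 3′ on the strand of the gene.
Ccl7, chr10:67513845-67514094, plus strand: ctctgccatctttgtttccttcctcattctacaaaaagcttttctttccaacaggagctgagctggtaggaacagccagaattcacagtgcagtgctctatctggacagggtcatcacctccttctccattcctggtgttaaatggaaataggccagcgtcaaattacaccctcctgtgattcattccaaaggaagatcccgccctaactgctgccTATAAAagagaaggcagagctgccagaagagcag
Ccl12, chr10:67567626-67567875, plus strand: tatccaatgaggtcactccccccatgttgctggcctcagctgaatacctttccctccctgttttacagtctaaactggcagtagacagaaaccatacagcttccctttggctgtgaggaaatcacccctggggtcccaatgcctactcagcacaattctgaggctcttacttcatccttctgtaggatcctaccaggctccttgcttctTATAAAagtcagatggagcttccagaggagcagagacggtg
Ccl6, chr10:68883367-68883616, minus strand: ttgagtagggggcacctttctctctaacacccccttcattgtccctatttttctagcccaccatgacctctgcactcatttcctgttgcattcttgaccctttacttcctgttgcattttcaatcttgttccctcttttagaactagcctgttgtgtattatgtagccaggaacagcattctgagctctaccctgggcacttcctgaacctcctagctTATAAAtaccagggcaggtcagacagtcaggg

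In these 3 ligand promoters TATAAA began 34 bases (Ccl7), 41 bases (Ccl12) and 32 bases (Ccl6) before the start, on the strand of the gene. Both strands were searched, and 12.9% of 33469 rat promoters of the same length held TATAAA on either strand. TGACTCA, the AP-1 consensus, was searched on both strands, so that its reverse complement counted too. It was in none of the 5 member windows and in 4.05% of all promoters, and the kappaB consensus was in none of the 5 and in 3.54% of all. The windows of Ccr1 and Ccr2 held none of the 3 motifs. A match in a window is a description of its letters and says nothing of binding in these muscles.

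Levels are in TPM, a length-scaled share of the transcripts of a library, so they can be compared between genes. Differences are on the scale of log2(TPM + 1), which understates the change of genes that are low in one group, and "SE" is the standard error of a difference. A gene was called at a Benjamini-Hochberg adjusted p under 0.05 in limma, over 11328 tested genes, with a log2 difference beyond 1. Left out were 13 libraries with 901 to 5712 symbols above 1 TPM, and the libraries kept had 7866 to 10948. TPM keep no sequencing depth. In 9 further libraries the labels disagreed on the muscle or the day, and these entered no comparison. The fibre genes listed as markers, such as Acta1 and Myh4, summed to at least 130132 TPM in each control and contralateral muscle of rats that did not run, so the labelled tissue was present.

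All 9 members were called higher in non-repaired injured muscle than in control at 3, 7 and 14 DPI, and 8 of 9 at 28 DPI. With the 4 control muscles averaged to their 2 rats, Ccl3 lost its calls, which gave 9, 9, 8 and 7. Of all tested genes, 48.3%, 45.6%, 25% and 21.1% were called higher at 3, 7, 14 and 28 DPI, so a call alone sets the members little apart from other genes. The median log2 difference over the 9 members was 4.07 at 3 DPI, against 0.96 over all tested genes. Groups did not overlap for any member at 3, 7 or 14 DPI, and injured values lay wholly above control for 69.9%, 66.0%, 58.9% and 60.2% of all tested genes at 3, 7, 14 and 28 DPI. With median-of-ratios size factors, the share of called genes that were higher went from 91.9% to 59.2% at 3 DPI, 95% to 60.6% at 7 DPI, 97.9% to 72.8% at 14 DPI and 99.0% to 78.4% at 28 DPI. The median over all genes at 3 DPI moved from 0.96 to 0.093, and under that scaling Ccl5 at 3 DPI (0.91), Ccl5 at 28 DPI (0.87) and Ccr1 at 28 DPI (0.95) fell under the fold limit.

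**Figure D1:**
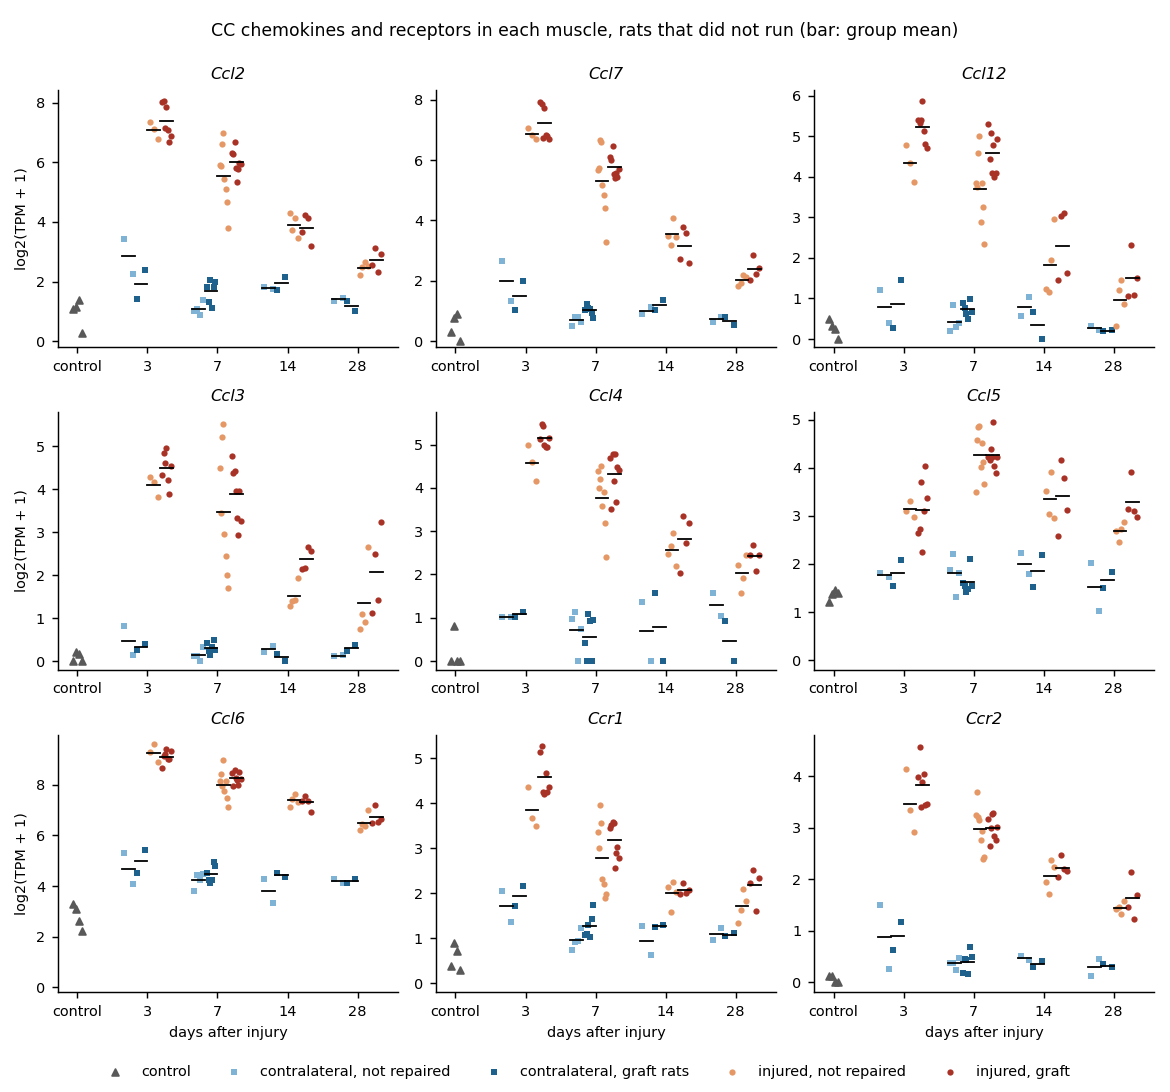
Level of each member on the log2(TPM + 1) scale in every muscle of rats that did not run, by day post injury, with one panel per gene. Points are muscles (control, contralateral non-repaired and grafted, injured non-repaired and grafted) and bars are group means. Injured muscles lie above all 4 control muscles in each panel at 3, 7 and 14 DPI.

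Ccl2, the principal monocyte attractant, was at 1.11, 1.19, 1.61 and 0.21 TPM in the 4 control muscles. At 3 DPI it was at 162.4, 137.4 and 108.7 TPM in the 3 non-repaired injured muscles (136.2 ± 26.84, SD, n = 3). Its log2 difference from control was 6.11 (SE 0.47, adjusted p = 1.69e-21). Every injured value was far above the highest control value, and the spread between injured muscles was small beside the difference.

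At later days Ccl2 was nearer to control, with tests of the day steps given further on. It ranged from 13.04 to 125.5 TPM at 7 DPI with a median of 50.02 (n = 8), a span that overlapped both the 3-DPI and the 14-DPI values. At 14 DPI the values were 18.91, 12.26, 16.68 and 10.07 TPM. At 28 DPI they were 3.65, 4.57, 5.32 and 4.7 TPM (4.56 ± 0.689, n = 4), still all above control, with a log2 difference of 1.5 (SE 0.43, adjusted p = 0.00151).

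Ccl7, a close relative of Ccl2 and its genomic neighbour, followed the same course. Control muscles had 0.24, 0.71, 0.88 and 0 TPM. The 3-DPI muscles had 132.7, 112.1 and 103.3 TPM, a log2 difference of 6.37 (SE 0.46, adjusted p = 7.88e-23). At 28 DPI Ccl7 was at 2.52, 2.84, 3.57 and 3.33 TPM, and its log2 difference from control was 1.52 (adjusted p = 0.00114). The groups did not overlap on any day.

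Ccl12, another ligand of Ccr2 found in rodents, had a lower mean than both in each non-repaired injured group of rats that did not run. Control muscles had 0.41, 0.24, 0.19 and 0 TPM, and the 3-DPI muscles 26.58, 19.18 and 13.76 TPM, with a log2 difference of 4.07 (SE 0.48, adjusted p = 9.93e-13). At 28 DPI the injured values were 0.25, 1.33, 1.76 and 0.81 TPM, and 1 of them lay within the control range. This was the one comparison with control in which a member was not called (0.70, SE 0.44, adjusted p = 0.145). With a pseudocount of 0.1 TPM in place of 1 it was called (1.85, adjusted p = 0.0041).

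Ccl3, also known as MIP-1 alpha, attracts monocytes and other leukocytes, in part through Ccr1. It was at 0, 0.15, 0.12 and 0 TPM in control muscle and at 18.36, 16.99 and 13.09 TPM at 3 DPI, a log2 difference of 4.0 (SE 0.59, adjusted p = 3.07e-09). At 7 DPI it spanned 2.23 to 44.76 TPM with a median of 8.37, the widest spread relative to its mean of any member that day in non-repaired muscle (16.12 ± 16.36, n = 8). At 14 DPI the values were 1.44, 1.63, 1.7 and 2.84 TPM, all above control (1.42, adjusted p = 0.0166). With the control muscles averaged per rat this call was lost (1.42, adjusted p = 0.0592), as in a model of the compared groups only (adjusted p = 0.0512).

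At 28 DPI Ccl3 was at 0.69, 1.13, 0.87 and 5.35 TPM, and 1 muscle, of rat 82, stood well above the other three. The difference from control was called (1.26, adjusted p = 0.0338), but not without that muscle (0.83, adjusted p = 0.2). It was also lost without the first or the fourth control muscle (1.23 in both, adjusted p = 0.0573 and 0.0662). The monocyte and macrophage markers summed to 757.9 TPM in the muscle of rat 82 and to 223 to 295.8 TPM in the other 3, and their part in the Ccl3 value was not tested.

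Ccl4, or MIP-1 beta, an attractant of monocytes and T cells, was listed at 0 in 3 control muscles and at 0.76 TPM in the fourth. It was at 30.95, 23.09 and 16.91 TPM at 3 DPI (4.38, SE 0.46, adjusted p = 7.28e-15). At 28 DPI it was at 3.66, 1.97, 2.8 and 4.49 TPM (1.84, adjusted p = 8.59e-05). No injured muscle reached down to the control values on any day.

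Ccl5, or RANTES, which T and NK cells as well as macrophages can make, had a different time course. It was already detectable in control muscle at 1.32, 1.58, 1.76 and 1.63 TPM. At 3 DPI it was at 7.59, 8.96 and 6.9 TPM, the smallest difference from control among the members that day (1.77, SE 0.33, adjusted p = 9.75e-07). It was highest at 7 DPI, from 10.24 to 28.32 TPM with a median of 19.05 (2.90, SE 0.26, adjusted p = 1.28e-17). At 14 DPI it was at 10.52, 7.16, 14.06 and 6.74 TPM, and at 28 DPI at 5.43, 4.46, 5.58 and 6.28 TPM (1.32, adjusted p = 9.78e-05).

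Ccl6 was the most abundant of the 9 in every group of the 31. Control muscles ranged from 3.64 to 8.78 TPM (6.25 ± 2.3, SD, n = 4) and the 3-DPI muscles 625, 780.2 and 478 TPM (627.8 ± 151.1, n = 3). Its log2 difference of 6.47 (SE 0.29, adjusted p = 3.4e-35) ranked 28 among all 11328 tested genes. On the log2(TPM + 1) scale it was also the member furthest from control at 14 and 28 DPI, an order that rests on the pseudocount for members near 0 in control. It was at 139.7 to 200.1 TPM at 14 DPI (4.59, SE 0.27) and at 72.78, 81.16 and 87.74 TPM in 3 muscles and highest in the fourth at 28 DPI (3.71, SE 0.27, adjusted p = 2.89e-21). At 28 DPI its rank was 54, and the next highest difference of a member that day was 1.84, for Ccl4.

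On the log2(TPM + 1) scale the receptors had smaller differences at 3 DPI than every ligand but Ccl5. That order depends on the pseudocount, because control levels of Ccr2 are near 0. Ccr1, carried by monocytes, macrophages and neutrophils, was at 0.31, 0.85, 0.65 and 0.23 TPM in control and at 19.55, 11.85 and 10.31 TPM at 3 DPI (3.27, SE 0.35, adjusted p = 2.94e-14). By 28 DPI it was at 1.54, 2.11, 3.26 and 2.54 TPM (1.15, SE 0.33, adjusted p = 0.00126). The groups did not overlap on any of the 4 days.

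Ccr2, the receptor of classical monocytes, was at 0.08 and 0.09 TPM in the muscles of 1 control rat and listed at 0 in those of the other. At 3 DPI it was at 16.73, 9.22 and 6.56 TPM (3.41, SE 0.30, adjusted p = 3.18e-18), and at 28 DPI at 1.69, 1.76, 1.51 and 1.98 TPM (1.39, SE 0.28, adjusted p = 9.33e-06). Since the lowest control values are near 0, these differences depend on the pseudocount of 1 TPM and are not ratios of the levels.

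Monocyte and macrophage markers rose and those of muscle fibres fell. At 3 DPI, when 48.3% of all tested genes were called higher, 10 of 10 monocyte and macrophage markers were called higher (median 5.71), among them Cd68 (7.36) and Lyz2 (7.93), and 8 of 8 fibre markers lower, beside 4.24% of all tested genes. The summed monocyte and macrophage markers were at 15.02 to 35.34 TPM in control muscle and at 4413 to 5825, 590.3 to 2838, 391.3 to 467.9 and 223 to 757.9 TPM in non-repaired injured muscle at 3, 7, 14 and 28 DPI. Of the neutrophil markers 5 of 6 tested were called higher at 3 DPI, of the T and NK cell markers 7 of 10, of the mast cell markers 2 of 4, of the dendritic cell markers 3 of 3, of the fibroblast markers 5 of 5 and of the endothelial markers 1 of 3. The mast cell and endothelial counts are near or below the share of all tested genes. The single tested B cell marker was not called, no eosinophil marker passed the filter on low values, and the defining eosinophil genes Prg2, Il5ra and Epx were listed at 0 in all control muscles. In whole muscle, more cells of a type and more RNA per cell cannot be told apart, and the part of cell numbers in the chemokine differences was not tested.

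**Figure D2:**
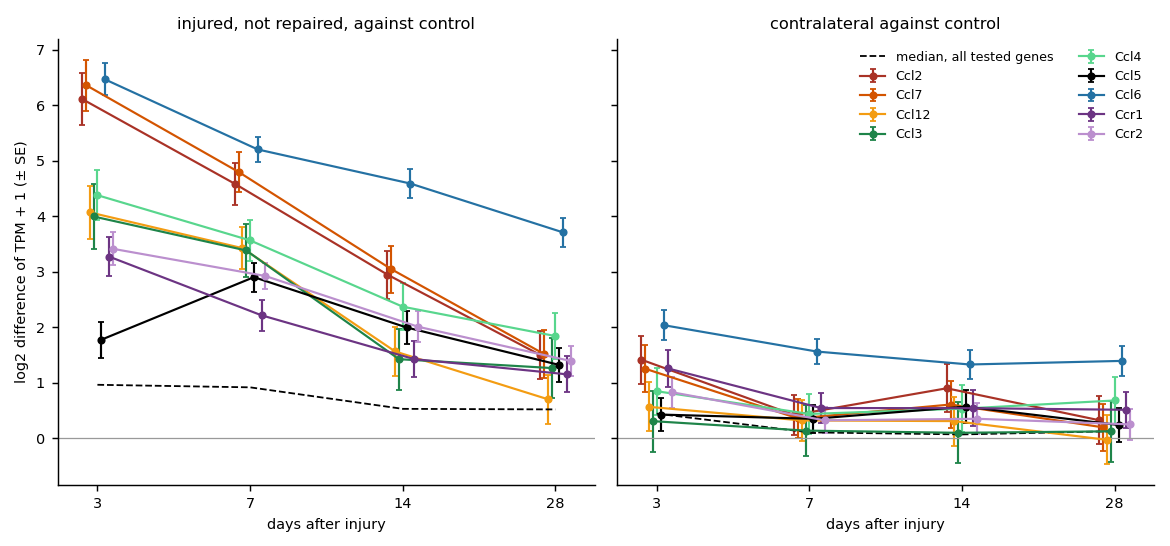
Log2 difference of each member from control by day post injury, for non-repaired injured muscle (left) and contralateral muscle (right) of rats that did not run; bars are standard errors and the dashed line is the median over all tested genes. Ccl2, Ccl7 and Ccl6 exceed 6 at 3 DPI, Ccl5 is highest at 7 DPI, and in contralateral muscle Ccl6 alone stays above 1 on all 4 days on this scale.

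Against the contralateral muscle of the same day the question is whether the members differ within the operated rats. In non-repaired rats 9, 9, 7 and 4 of 9 members were called higher in injured muscle at 3, 7, 14 and 28 DPI, and 32.3%, 45.3%, 20.9% and 13.1% of all tested genes were. Values did not overlap between injured and contralateral muscle for any member on any day, and injured values lay wholly above contralateral for 59.7%, 67.0%, 73.1% and 67.4% of all tested genes. The comparisons with control and with contralateral muscle share their injured muscles. Under size factors the called genes that were higher went from 84.5% to 60.4% at 3 DPI, 95.8% to 59.3% at 7 DPI, 99.2% to 73.5% at 14 DPI and 98.4% to 82.7% at 28 DPI. Ccl5 then fell under the fold limit at 3 DPI (0.89), 14 DPI (0.83) and 28 DPI (0.855), Ccr1 fell under it at 14 DPI (0.72), and Ccl7 at 28 DPI was not called (1.11, adjusted p = 0.0616).

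For the Ccr2 ligands the contralateral comparison was large early. At 3 DPI Ccl2 was at 9.89 and 3.81 TPM in the contralateral muscles of rats 10 and 17, against 162.4 and 137.4 TPM in their injured muscles. The log2 difference over the groups was 4.23 (SE 0.56, adjusted p = 1.82e-10), and that of Ccl7 was 4.88 (SE 0.55, adjusted p = 6.32e-13). At 14 DPI Ccl12 (1.02, adjusted p = 0.0887) and Ccl3 (1.23, adjusted p = 0.101) were not called. Both were called with a pseudocount of 0.1 TPM (1.61, adjusted p = 0.0452, and 2.62, adjusted p = 0.00379), and Ccl12 was called without the second injured muscle (1.25, adjusted p = 0.0484). Without the second contralateral muscle the 14-DPI calls of Ccl4 (1.2, adjusted p = 0.125) and Ccr1 (0.72, adjusted p = 0.246) were also lost, and that of Ccr1 was lost without the first (0.998) or the third (0.97) injured muscle, since it lay at the fold limit (1.05).

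At 28 DPI the members called were Ccl6 (2.31, SE 0.33, adjusted p = 1.8e-08), Ccr2 (1.16, SE 0.34, adjusted p = 0.00363), Ccl5 (1.16, SE 0.37, adjusted p = 0.00788) and Ccl7 (1.29, SE 0.52, adjusted p = 0.0325). Ccl6 was at 18.18 and 16.55 TPM in contralateral muscle, and the lowest injured value was 72.78 TPM. Without the contralateral muscle of rat 73 Ccl7 (1.22, adjusted p = 0.152) and Ccr2 (0.995) were no longer called, and without that of rat 74 Ccl7 (1.37, adjusted p = 0.107) and Ccl5 (0.67) were not. The Ccl7 call was also lost without the injured muscle of rat 81 (1.24, adjusted p = 0.0594) or rat 82 (1.26, adjusted p = 0.0551). The call of Ccl6 held without each of these muscles.

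In grafted rats 9, 9, 8 and 9 of 9 members were called higher in injured than in contralateral muscle, against 37.2%, 42.9%, 25.6% and 18.8% of all tested genes. Values did not overlap for any member on any day, as for 62.2%, 68.4%, 75.2% and 69.7% of tested genes that were wholly higher. Under size factors the called genes that were higher went from 84.6% to 57.8%, 92.7% to 60.8%, 98% to 67.4% and 98.4% to 74.4%, and Ccl5 at 3 DPI (0.72) and Ccr1 at 28 DPI (0.75) lost their calls. At 3 DPI the differences were 5.48 for Ccl2 (SE 0.49), 5.72 for Ccl7 (SE 0.48), 4.38 for Ccl12 (SE 0.50) and 4.14 for Ccl6 (SE 0.30). The exception was Ccr1 at 14 DPI (0.80, adjusted p = 0.067), at 2.95 to 3.71 TPM in injured and 1.37 and 1.47 TPM in contralateral muscle. It was called with a pseudocount of 0.1 TPM (1.12, adjusted p = 0.0334). At 28 DPI the calls of Ccl12 (1.30) and Ccr1 (1.1) were lost without the contralateral muscle of rat 75 or 76 or the injured muscle of rat 76. The call of Ccl3 (1.76) was lost without either contralateral muscle or the injured muscle of rat 84, and those of Ccl2 and Ccl4 without the contralateral muscle of rat 76. The 14-DPI call of Ccl4 (2.04) was lost without the second contralateral muscle (1.26, adjusted p = 0.0912).

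Running rats gave 53 calls of 54 for injured against contralateral muscle at 3, 7 and 14 DPI. Among all tested genes 33.7%, 39.9% and 25.7% were called higher in non-repaired and 37.9%, 40% and 23.6% in grafted running rats. Under size factors the called genes that were higher went from 83.9% to 58.5%, 92.6% to 60.4% and 97.5% to 65.7% in non-repaired, and from 84.5% to 58.2%, 90.3% to 58.1% and 97.2% to 66.7% in grafted rats. Ccl5 at 3 DPI then lost its call in both (0.65 and 0.48), as did Ccr1 in grafted muscle at 7 DPI (0.77) and in non-repaired muscle at 14 DPI (0.61). The member not called was again Ccr1 at 14 DPI in grafted muscle (0.83, adjusted p = 0.0579), which was likewise called with a pseudocount of 0.1 TPM (1.135, adjusted p = 0.0329). Some calls at 7 and 14 DPI rested on 1 muscle: Ccr1 in grafted muscle at 7 DPI was lost without the contralateral muscle of rat 8 (0.80), and in non-repaired muscle at 14 DPI Ccl3 (1.68) and Ccr1 (1.04) were lost without the second contralateral muscle, and Ccr1 (0.92) without the injured muscle of the same rat.

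The contralateral muscle was not at control level. At 3 DPI, over both repair groups of rats that did not run, Ccl6 (2.03, SE 0.27, adjusted p = 3.05e-09), Ccl2 (1.41, SE 0.43, adjusted p = 0.00336), Ccl7 (1.25, SE 0.42, adjusted p = 0.00806) and Ccr1 (1.25, SE 0.33, adjusted p = 0.00065) were called higher than in control. That is 4 of 9 members, with 7.09% of all tested genes called higher. Ccr2 had an adjusted p of 0.00749 and a difference of 0.83, under the fold limit. Under size factors the called genes that were higher went from 99.1% to 84.3%.

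Ccl6 remained called in contralateral muscle at 7 DPI (1.56), 14 DPI (1.33) and 28 DPI (1.39), when 0.900%, 0.953% and 0.494% of tested genes were called higher and no other member was. That Ccl6 stood alone depends on the pseudocount of 1 TPM. With 0.1 TPM, Ccr2 was called on all 4 days (2.62, 1.503, 1.63 and 1.25), Ccl7 and Ccr1 at 7 DPI (1.13 and 1.16) and at 14 DPI (1.61 and 1.14), Ccl2 at 14 DPI (1.52), and Ccl4 and Ccl12 at 3 DPI (2.77 and 1.49). At 3 DPI the contralateral values of Ccl6 were 38.23, 15.95, 21.96 and 42.36 TPM. At 14 DPI they were 18.42, 9.01, 22.12 and 19.75 TPM, and at 28 DPI 18.18, 16.55, 16.32 and 18.18 TPM. Every one of these lay above the highest control value of 8.78 TPM. With all libraries kept, the calls at 7 DPI (0.85, adjusted p = 0.232), 14 DPI (1.33, adjusted p = 0.615) and 28 DPI (1.39, adjusted p = 1) were lost.

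The other 3-DPI calls in contralateral muscle came with wide spreads. Ccl2 was at 9.89 and 3.81 TPM in non-repaired and 1.66 and 4.27 TPM in grafted rats, with a control maximum of 1.61 TPM. Ccr1 was at 3.18, 1.58, 2.31 and 3.47 TPM, all above the control maximum of 0.85 TPM. Ccl7 was at 5.27, 1.51, 1.06 and 2.94 TPM, and its call was lost without rat 10 (0.92, adjusted p = 0.0888) or rat 14 (1.02, adjusted p = 0.0586). Ccl4 was called without the second control muscle (1.05), and Ccr2 without rat 17 (1.14).

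The same contralateral muscles differed in leukocyte markers. The summed monocyte and macrophage markers were at 189.2, 70.96, 132.3 and 170.1 TPM in rats 10, 17, 13 and 14, and 8 of the 10 were called higher than in control. The summed neutrophil markers were at 104.3, 8.71, 105.7 and 105.6 TPM in those rats and at 1.28 to 5.66 TPM in control. Rat 17, with the lowest values of both, also had the lowest Ccl6, Ccr1 and Ccr2, whereas Ccl2, Ccl7 and Ccl12 were lowest in rat 13. Elane and Camp, which mark early neutrophils, were listed at 0 in control. In the contralateral muscles of non-repaired and grafted rats they were near 0 too. Means there were 0 and 0.025 TPM for Elane and 0.195 and 0.155 TPM for Camp. Mpo was at a mean of 0.0175 TPM in control and at 0.045 and 0 TPM in these contralateral groups. The part of leukocytes in the contralateral values was not tested.

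Between 3 and 7 DPI Ccl5 rose while 4 of the other 8 members fell in non-repaired and 3 of 8 in grafted muscle. In non-repaired muscle it rose by 1.13 (SE 0.29, adjusted p = 0.00116), with no overlap of the groups (5.33% of tested genes were likewise wholly higher), while Ccl2 (-1.53, SE 0.41), Ccl7 (-1.57), Ccl6 (-1.26) and Ccr1 (-1.06) fell. Of all tested genes 2.0% were called higher and 5.35% lower. The call of Ccr1 was lost without the 3-DPI muscle of rat 10 (-0.80) and without any 1 of the last 4 muscles at 7 DPI (-0.93 to -0.99). In grafted muscle Ccl5 rose by 1.15 (SE 0.22), with 2.65% of tested genes higher, and Ccl2 (-1.37), Ccl7 (-1.45) and Ccr1 (-1.42) fell, with 4.29% lower. Without rat 21 the grafted Ccl5 call was lost, at a difference of 1.0. With all libraries kept the Ccl5 rise in non-repaired muscle was 0.78 and not called (adjusted p = 0.117).

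T and NK cell markers were measured beside Ccl5. At 3 DPI Cd3e, a part of the T cell receptor complex, was at a mean of 2.55 TPM in non-repaired muscle and at 7 DPI at 3.82 TPM, a difference that was not called (0.45, adjusted p = 0.096). Nkg7, a granule protein of cytotoxic cells, went from 3.30 to 6.02 TPM (0.61, adjusted p = 0.033, under the fold limit). The sum of the list was higher at 3 DPI, at 206.8 to 262.3 TPM, than at 7 DPI, at 73.16 to 177.9 TPM. Cd4 and Cd8a (a mean of 83.39 TPM) made up most of it at 3 DPI, and Cd4 is also carried by rat macrophages. The part of these cells in the Ccl5 rise was not tested.

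From 7 to 14 DPI 5 of 9 members fell in non-repaired and 6 of 9 in grafted muscle. In non-repaired muscle Ccl2 (-1.64), Ccl7 (-1.75), Ccl12 (-1.86), Ccl3 (-1.96) and Ccl4 (-1.20) were called lower, with 6.10% of tested genes lower and 0.724% higher. Ccl5 (-0.91), Ccl6 (-0.61), Ccr1 (-0.79) and Ccr2 (-0.92) were under the fold limit. In grafted muscle Ccl2 (-2.20), Ccl7 (-2.62), Ccl12 (-2.29), Ccl3 (-1.49), Ccl4 (-1.49) and Ccr1 (-1.10) were called lower, with 9.77% lower and 1.08% higher. With size factors the called genes that were higher went from 10.6% to 60.9% in non-repaired, from 9.9% to 46.5% in grafted muscle, and from 38.2% to 48.5% between 3 and 7 DPI in grafted muscle. The non-repaired Ccl4 call (-0.84) and the grafted Ccr1 call (-0.76) were then lost, as was the non-repaired Ccr1 call between 3 and 7 DPI (-0.98). From 14 to 28 DPI 1 member, Ccl7 in non-repaired muscle, was called (-1.53, adjusted p = 0.0477), while Ccl2 was called under size factors alone (-1.44, adjusted p = 0.0331, against -1.45, adjusted p = 0.0644), with 0.353% of tested genes lower. The Ccl7 call was lost without any 1 of the 8 muscles (-1.35 to -1.65, adjusted p of 0.0571 to 0.207). No member was called in grafted muscle, with 1.11% lower and 0.247% higher, against 0.106% higher in non-repaired muscle. The muscles of 14 and 28 DPI came from rats in separate ranges of rat numbers. Day and range thus cannot be told apart in this step.

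The days were not spread evenly over the rats. Rats are numbered in ranges, and the 7-DPI group of 8 non-repaired muscles holds 4 from rats 1 to 32, 2 from an intermediate range and 2 from the highest range. Ccl2 was at 57.77 to 125.5 TPM in the first range, 33.38 and 42.27 TPM in the intermediate one and 13.04 and 24.46 TPM in the highest one. Ccl3 was at 9.91 to 44.76, 4.49 and 6.82, and 2.23 and 3 TPM in the same order. Ccr1 was at 7.01 to 14.69, 3.59 and 3.97, and 2.74 and 2.97 TPM. For these 3 genes, and likewise for Ccl7, Ccl4 and Ccr2, the ranges did not overlap within the non-repaired 7-DPI group. For Ccl12, Ccl5 and Ccl6 they overlapped. The share of all tested genes that separated by range was not computed. In grafted muscle at 7 DPI the order differed. Ccl2 was at 55.55 to 101.7 TPM in rats 1 to 32, 39.79 and 53.33 TPM in the intermediate range and 60.5 and 61.47 TPM in the highest range. The highest range thus lay above the intermediate one and within the first. Ccl3 was at 14.52 to 26.49, 6.61 and 9, and 8.64 and 14.54 TPM, with the highest range overlapping both others. Ccr1 was at 9.99 to 11.07, 4.87 and 6.41, and 5.91 and 7.16 TPM. For Ccr1 the first range thus lay wholly above both others, as in non-repaired muscle.

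Some cell markers also differed by range in those muscles. The monocyte and macrophage markers summed to 1734 to 2838 TPM in rats 1 to 32, 1230 and 1398 TPM in the intermediate range, and 590.3 and 678.4 TPM in the highest range. The fibre markers ran the opposite way, at 41929 to 58371, 65440 and 70215, and 80899 and 93423 TPM. Neutrophil sums overlapped between the ranges, at 20.3 to 62.14, 44.26 and 57.42, and 37.37 and 63.31 TPM. Labels do not say what the ranges stand for, and their part in the day differences was not tested beyond the values that follow.

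**Figure D3:**
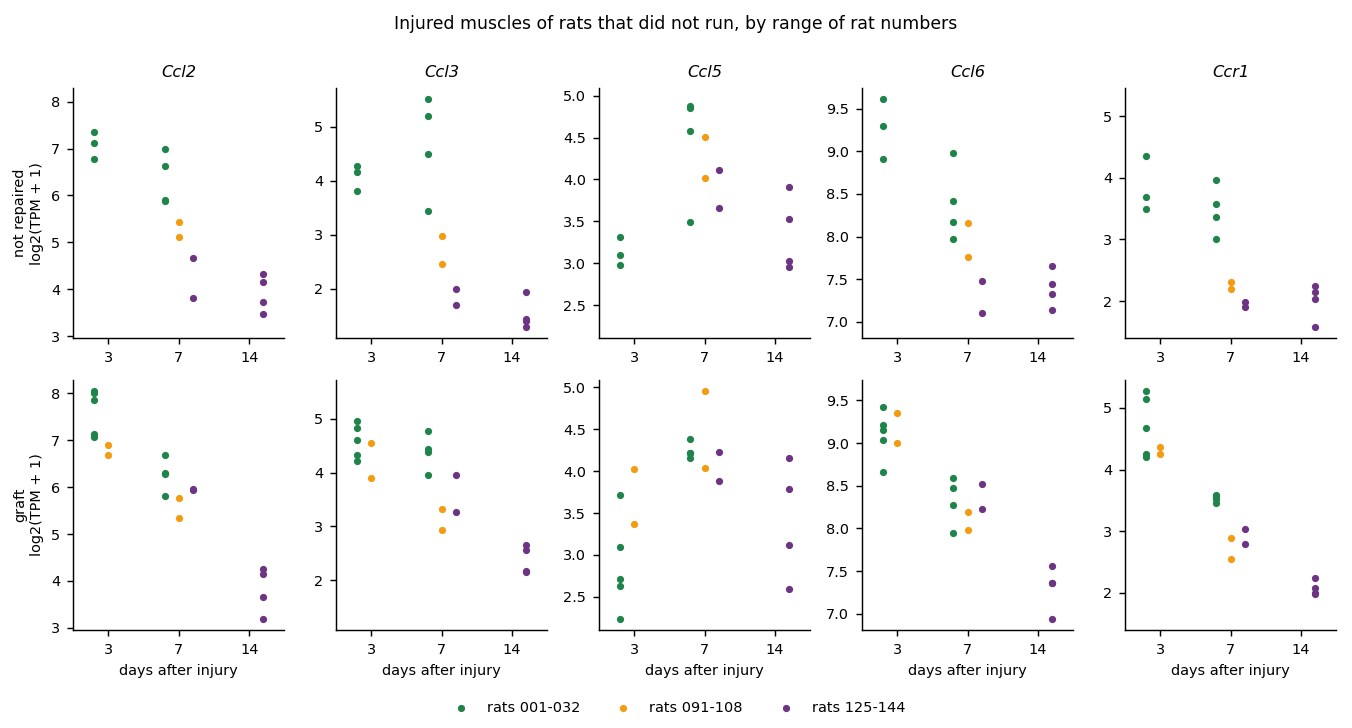
Levels of Ccl2, Ccl3, Ccl5, Ccl6 and Ccr1 on the log2(TPM + 1) scale in injured muscles of rats that did not run at 3, 7 and 14 DPI, non-repaired and grafted, with points coloured by the range of rat numbers. At 7 DPI without repair, Ccl2, Ccl3 and Ccr1 run from the lowest rat numbers at the top to the highest at the bottom.

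Within one range of rat numbers, a comparison added after the values were seen, the rise of Ccl5 between 3 and 7 DPI was kept. In rats 1 to 32 it was 1.32 (SE 0.32, adjusted p = 0.00103) in 4 against 3 non-repaired muscles and 1.36 in 4 against 5 grafted muscles. The falls in non-repaired muscle were not called there: Ccl2 was at -0.73 (adjusted p = 0.196), Ccl7 at -0.69, Ccl6 at -0.88 and Ccr1 at -0.37. In grafted muscle Ccl2 (-1.35), Ccl7 (-1.39) and Ccr1 (-1.18) were still called lower. Between 7 and 14 DPI in the highest range, no member was called in non-repaired muscle (Ccl2 -0.33, Ccl7 -0.30, Ccl12 -0.97, Ccl3 -0.33, Ccl4 -0.23, 4 against 2). In grafted muscle Ccl2 (-2.14), Ccl7 (-2.41), Ccl12 (-2.21), Ccl4 (-1.64) and Ccl6 (-1.07) were called lower, also in 4 against 2. The share of all tested genes called within a range was not computed, so no background stands beside these counts. With the range as a covariate over all rats, the calls lost were Ccr1 (-0.84) at 7 DPI and Ccl4 (-0.82) at 14 DPI in non-repaired muscle, and Ccl3 (-0.88) and Ccr1 (-0.86) at 14 DPI in grafted muscle.

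Whether the graft altered the members was asked by comparing grafted with non-repaired injured muscle. None of the 36 differences was called in limma, and 1, 10, 3 and 0 of 11328 genes were called at 3, 7, 14 and 28 DPI in either direction (0.00883%, 0.0883%, 0.0265% and 0%). Grafted values lay wholly above non-repaired ones for 5.22%, 0.132%, 7.64% and 0.803% of tested genes. At an unadjusted p under 0.05, 2 members differed at 3 DPI, 1 at 7 DPI and 0 at 14 and 28 DPI.

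Ccl12 came nearest to a call. At 7 DPI it was at 4.0 to 31.04 TPM with a median of 12.88 in non-repaired muscle and at 15.01 to 38.63 TPM with a median of 23.61 in grafted muscle (n = 8 each). The difference was 0.90 with a 95% interval of 0.28 to 1.52 (adjusted p = 0.0544). It was called without the non-repaired muscle of rat 19 (1.03, adjusted p = 0.0247) or rat 20 (1.09, adjusted p = 0.0114), the 2 highest of their group, and with all libraries kept (1.24, adjusted p = 0.0028). At 3 DPI the Ccl12 difference was 0.91 (0.05 to 1.76) and that of Ccr1 0.75 (0.12 to 1.38), with adjusted p of 0.269 and 0.24. The monocyte and macrophage markers summed to 1943 to 4142 TPM in grafted and 590.3 to 2838 TPM in non-repaired muscle at 7 DPI, and their part was not tested.

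For some other members the intervals of the difference between grafted and non-repaired muscle are given. They describe the observed groups gene by gene and are not adjusted for the number of genes. An effect of the graft itself is not bounded by them, since muscles also differed in marker sums and rat numbers. At 7 DPI the Ccl5 difference was between -0.43 and 0.42 and that of Ccr2 between -0.37 and 0.41. For Ccl2 it was between -0.14 and 1.07 and for Ccl3 between -0.36 and 1.17. At 14 DPI Ccl3 was at 3.45, 3.51, 5.31 and 4.91 TPM in grafted and 1.44 to 2.84 TPM in non-repaired muscle with no overlap, and the difference was 0.87 (-0.21 to 1.96, adjusted p = 0.73). The monocyte and macrophage marker sums of these muscles did not overlap either, at 469.6 to 747.2 TPM in grafted and 391.3 to 467.9 TPM in non-repaired muscle, and their part was not tested. At 28 DPI Ccl5 was at 7.82, 14.03, 7.62 and 6.86 TPM in grafted and at 4.46 to 6.28 TPM in non-repaired muscle, again with no overlap (0.60, -0.00 to 1.21).

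In running rats no member was called for graft against no repair on any day, and 0%, 0%, 0.0177% and 0.0177% of tested genes were. At 28 DPI, with 2 muscles in each group, 4 members had an unadjusted p under 0.05. Ccl3 was at 26.37 and 2.58 TPM in grafted and 1.5 and 1.3 TPM in non-repaired muscle (2.04, 0.51 to 3.58). Ccr2 was at 8 and 2.46 against 0.82 and 1.7 TPM (1.33, 0.55 to 2.11, adjusted p = 0.539). The high values all belong to rat 87, whose monocyte and macrophage markers summed to 1256 TPM, against 330.4 TPM in rat 88. Without rat 88 Ccl3 (3.51, adjusted p = 0.0242) and Ccr2 (2.02, adjusted p = 0.00729) were called, with rat 87 alone in the grafted group and assumed to vary like the other groups.

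**Figure D4:**
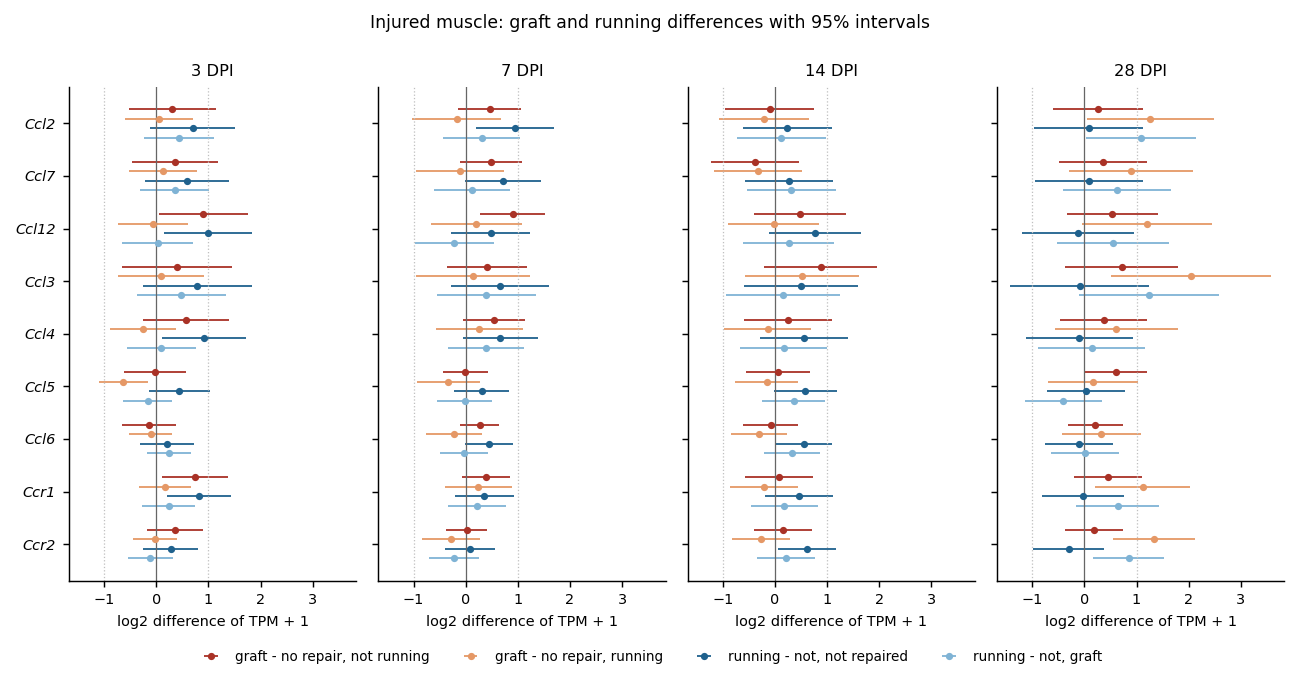
Log2 differences with 95% intervals for each member at 3, 7, 14 and 28 DPI, for graft against no repair and for running against not running, each in both arms of the other factor. All points are uncalled, and the widest intervals belong to Ccl3 and to the 28-DPI groups with 2 muscles.

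Running left no called difference in the members either, and 0.0441%, 0%, 0.0177% and 0.0177% of tested genes were called at 3, 7, 14 and 28 DPI in non-repaired muscle and 0% in grafted muscle. In non-repaired muscle all 9 differences were positive at 3, 7 and 14 DPI and 3 of 9 at 28 DPI. At the first 3 of these days there were 3, 1 and 2 members at an unadjusted p under 0.05, with lowest adjusted p of 0.21, 0.161 and 0.458, and at 28 DPI there were 0. At 3 DPI Ccl12 was at 15.66 to 101.4 TPM with a median of 42.61 in 8 running rats, against 26.58, 19.18 and 13.76 TPM in 3 others (0.99, 0.15 to 1.83). Ccl2 at 7 DPI was at 47.59, 59.09, 180.7 and 123.6 TPM, with both high values from rats 31 and 32, against 13.04 to 125.5 TPM (0.94, 0.20 to 1.69). The monocyte and macrophage markers summed to 3678 and 2589 TPM in rats 31 and 32 and to 1562 and 1591 TPM in the other 2, and their part was not tested. All 4 of these running rats are numbered 1 to 32, as are 4 of the 8 others, so running and the range of rat numbers are partly confounded. Among rats 1 to 32, running and other medians were 91.35 and 78.62 TPM for Ccl2 and 57.58 and 73.85 TPM for Ccl7, with overlapping values. In grafted muscle 0, 0, 0 and 2 members had an unadjusted p under 0.05 at 3, 7, 14 and 28 DPI. The difference between the graft effect in running rats and in others was called for no member on any day (0.00883%, 0%, 0% and 0.00883% of tested genes), and at 28 DPI it was 1.33 for Ccl3 (-0.55 to 3.22) and 1.15 for Ccr2 (0.19 to 2.11).

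Other genes of the CC system were taken from lists of known function. Of 13 other CC ligands 8 were tested, and 6, 6, 3 and 3 of them were higher than control at 3, 7, 14 and 28 DPI, where 48.3%, 45.6%, 25% and 21.1% of all tested genes were. With 8 genes, the later counts are near that background. Ccl9, which lies beside Ccl5 and is related to Ccl6, was at a mean of 1.39 TPM in control and 31.06, 48.16, 5.96 and 7.35 TPM in non-repaired muscle on those days (3.73, 3.89, 1.51 and 1.62). Ccl21, which guides T cells and dendritic cells into lymphatics, went from 8.30 TPM to 72.86 TPM at 3 DPI (2.90) and was at 44.25 TPM at 28 DPI (2.21). Ccl20, the ligand of Ccr6, was listed at 0 in control and was at 9.72 TPM at 3 DPI and 1.41 TPM at 7 DPI. At the lower end of those called at 3 DPI were Ccl11 (1.12) and Ccl24 (1.87), both ligands of the eosinophil receptor Ccr3, and Ccl17 (1.96), a ligand of Ccr4. Ccl24 remained higher at 28 DPI (1.64). In 3-DPI contralateral muscle of non-repaired and grafted rats that did not run, mean Ccl21 was 39.11 and 55.92 TPM. Mean Ccl24 there was 7.8 and 6.435 TPM, against 2.37 TPM in control and 11.63 TPM in non-repaired injured muscle. Both were thus above the control mean in uninjured muscle too, while mean Ccl9 there was 1.815 and 1.92 TPM.

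Of 13 other CC and atypical receptors 6 were tested, and 3, 2, 2 and 1 were called higher, shares near those of all tested genes on each day (48.3%, 45.6%, 25% and 21.1%), so the count sets these receptors in no way apart. Ccr7, the receptor of Ccl21, was called at 3 DPI (3.46) and not called at 28 DPI (0.95). Ackr2, a scavenger of inflammatory CC chemokines, was not called on any day, at 0.31 to 0.86, and neither was Ccrl2, at -0.07 to 0.32. Ccr3 did not pass the filter on low values, and Ackr1 was not analysed here.

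Genes of chemokine receptor signalling were higher in 22, 21, 18 and 17 of 22 tested, with medians of 3.18, 2.33, 1.47 and 1.25, against 0.96, 0.92, 0.53 and 0.52 over all tested genes. At 3 DPI Lyn (4.02), a kinase of the Src family, and Rac2 (4.32), a GTPase of leukocyte migration, were among the 3 highest, and the lowest was Rac1 (1.02), its broadly expressed relative. Of genes that induce CC ligand transcription 21, 16, 12 and 10 of 23 tested were higher, beside 48.3%, 45.6%, 25% and 21.1% of all tested genes. Tlr2 (5.57), which senses microbial and tissue debris, Spi1 (5.22), the master factor of myeloid cells, and Irf5 (4.91) led at 3 DPI. Il6 was called at 3 DPI (3.18) and not later (0.90, 0.14 and 0.20), and Tnf was called at 3 DPI alone (1.2). Both lists hold many leukocyte genes, and the rise of the marker sums given above applies to them too.

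The members were described by how alike their group means were over the 31 groups. Injured and contralateral groups share rats, so that the values are given as a description. Ccl2 and Ccl7 were the most alike pair (r = 0.997), and each was the other's closest gene among 11327. Ccl12 was closest to Itgal, an integrin of leukocytes (0.99), Ccl3 to Il7r (0.992), Ccl4 to Cd44 (0.991) and Ccl6 to Cd4 (0.992). Ccr1 was closest to Mme (0.986), with Cd14, a monocyte marker, among its closest 3 (0.984), and Ccr2 to Laptm5 (0.99), with Rac2 also among its closest 3 (0.988). Ccl5 was closest to Cpxm1 (0.971), with Gzmm, a granzyme of cytotoxic lymphocytes, among its closest 3 (0.970).

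Over the 76 injured muscles with group means removed, Ccl2 and Ccl7 still moved together (r = 0.962). Ccl2 also went with Ccr1 (0.801), Ccl3 (0.772) and Ccl12 (0.755). Ccl5 was the least tied to the rest, at 0.209 with Ccl3 and at most 0.49, with Ccl12. Ccl6 had 0.303 with Ccr2 and 0.345 with Ccr1, the receptor it binds. Both the range of rat numbers and the cell markers vary between muscles of a group, and their part in these values was not tested.

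**Figure D5:**
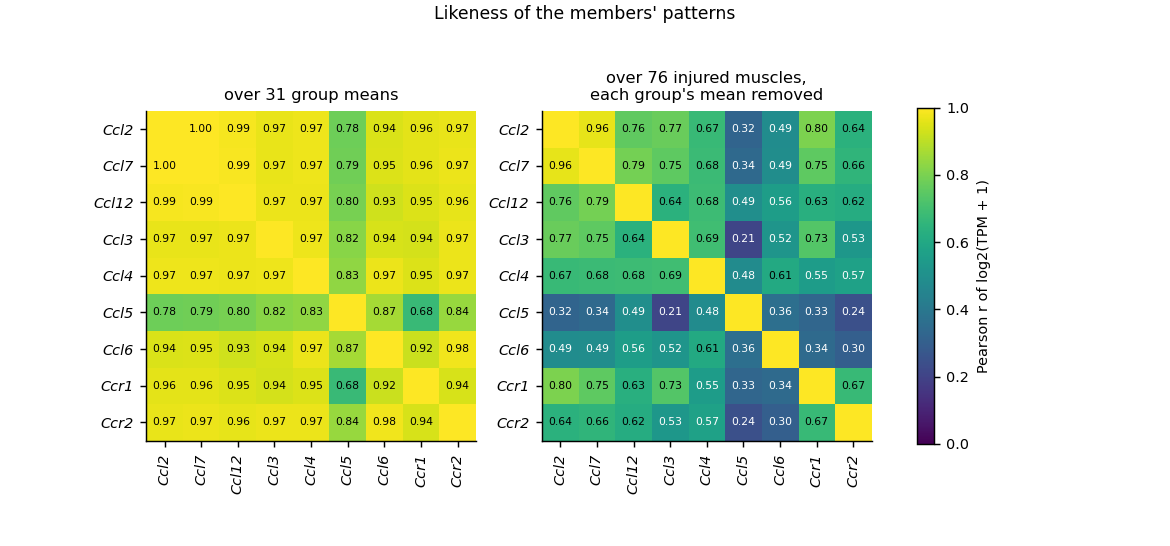
Pearson r between members, over the 31 group means of log2(TPM + 1) (left) and over 76 injured muscles after removal of the group means (right). Ccl2 and Ccl7 are the closest pair in both panels (0.997 and 0.962), and the lowest value of the right panel is that of Ccl5 with Ccl3 (0.209).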

How the data were processed

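RNA-Seq libraries of rat TA muscle (TruSeq libraries of total RNA, paired-end) were quantified by the authors with Kallisto against the rat 6.0 build, and the deposited table holds TPM per symbol. DESeq is also named in the submitters' processing notes. The versions are not given in the sources used here. The deposited TPM were used as they stand, so depth is unknown and no counting interval can be given. The table ends alphabetically at Tubb3, and 1 incomplete last entry was dropped. Paralogous reads may be split between chemokines by the estimation, which was not tested.

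Libraries with fewer than 7000 symbols above 1 TPM were dropped (13), 9 with conflicting labels entered no comparison, and the mean was taken where a muscle had 2 libraries. This gave 116 libraries of 114 muscles from 78 rats. Dropping the 13 left 2 muscles without a library in the model, both contralateral at 7 DPI. For 1 of them a further library passed the limit but was among the 9 with conflicting labels. One limma 3.58.1 model (R 4.3.3) with a mean per group and 83 residual degrees of freedom was fitted on log2(TPM + 1), with an intensity trend, to 11328 genes with a mean above 1 TPM in at least 1 group. P values were adjusted by Benjamini-Hochberg within a comparison. The 9 members are all named, and listed genes are named by the highest and lowest called differences and by binding of the members. Values of some listed genes are not reported here. Members and lists were chosen with earlier results of these data known.

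For the 36 rats with both muscles in the model, the same animal pairs the samples. Their residuals correlated by 0.072 on average, above 0.1 in 15 pairs, and by -0.009 between different rats, and the fitted block correlation was 0.026 (statmod 1.5.0). In simulated data for injured against control at 7 DPI over 11328 genes, 50 of 50 changed genes were recovered at each log2 change of 1.5, 2, 3 and 4, with 1 false call. Promoters and motifs used RefSeq tables of GRCr8, for names and sequence only, since the TPM refer to another build. Alternatives changed the pseudocount, filter, libraries, scaling, block, groups, call rule, controls and muscles. Values were tabulated with pandas 2.3.3 on Python 3.11.15 (numpy 2.4.6), and plots were drawn with matplotlib 3.10.9.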

Additional observations from a re-analysis of the deposited data

Results flagged for a closer look

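In 6 sets of one member in one group, 1 muscle stood apart from the rest by Dixon's 95% limit, which chance exceeds in about 1 of 20 sets. About 7.2 such sets would come by chance among those checked, so their number is no more than chance gives. In injured muscle these were Ccl3 at 28 DPI without repair (5.35 TPM, rat 82), Ccl5 with graft at 7 DPI (30.07 TPM) and at 28 DPI (14.03 TPM, rat 76), and Ccr1 at 3 DPI without repair in running rats (48.32 TPM). In uninjured muscle they were Ccl4 in control (0.76 TPM, rat 37, with the other 3 at 0) and Ccl5 in contralateral muscle of grafted rats at 7 DPI (3.28 TPM).

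The 9 libraries that entered no comparison are outside the main measurement and held the members at levels mostly above control muscle. Their highest values were 9.29 TPM for Ccl2, 5.52 for Ccl7, 1.15 for Ccl12, 4.91 for Ccl3, 4.66 for Ccl4, 9.92 for Ccl5, 110.55 for Ccl6, 3.84 for Ccr1 and 2.13 for Ccr2. All 9 libraries exceeded the highest control muscle for Ccl4, Ccl5, Ccl6 and Ccr2, 8 did for Ccl2 and Ccr1, 7 for Ccl7 and Ccl3, and 4 for Ccl12. For 4 running rats at 28 DPI the title of a library and its labels give opposite muscles. There, the library titled as control muscle was higher than that titled as injured in 9, 9, 8 and 9 of 9 members. These libraries were not assigned from their values.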

How the results depend on the processing

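The number of members called was recomputed under each alternative for 432 pairs of member and comparison, of which 180 were called, and no call reversed. With the rat as a random replicate block, which uses the pairing of muscles of one animal, counts were unchanged in all 12 comparisons (35, 29, 35, 53, 7, 11, 10 and 0 in the other 5), and no call of a member changed. Contralateral against control went from 7 calls to 18 with a pseudocount of 0.1 TPM and to 4 with all libraries kept. Graft against no repair went from 0 to 1 with all libraries kept (Ccl12 at 7 DPI), and later against earlier day in grafted muscle from 10 to 16 with the adjusted p alone, by construction of that rule. Leaving out each muscle in turn gave 34 to 35 calls for injured against control, 27 to 30 against contralateral, 30 to 35 for grafted, 51 to 53 for running, 6 to 8 for contralateral against control, 10 to 12 and 9 to 12 for later against earlier day in non-repaired and grafted muscle, 0 to 1 for graft against no repair and 0 to 2 for the same in running rats. Both running comparisons and the interaction stayed at 0. Over single members, 7398 of the recomputed values kept their side of the threshold, 95 lost and 50 gained a call. The causes were not tested. Injured against contralateral at 28 DPI went from 4 to 2 calls with all libraries kept or size factors and to 7 with a pseudocount of 0.1 TPM. The range of rat numbers could not be estimated as a covariate for comparisons with control or between 14 and 28 DPI. Rats of those days came from separate ranges, so day and range coincide there. Ccl3 and Ccl12 were not tested for contralateral against control when only the compared groups were fitted. Depth is unknown, so the counting error of low values, such as those of control muscle, could not be estimated.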
